A study of Mus musculus with 54 samples.

Results

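The comparison was between ovaries of F2 female mice born to a control father and a mother from the dose 2 group (the maternal dose 2 cross, 3 libraries) and ovaries of F2 females whose parents both came from the control group (the control cross, 3 libraries). These 6 libraries, chosen by their labels, belong to a series of 54 RNA-seq libraries of mouse ovary and testis in the F1 and F2 generations. The grandmothers and their F1 progeny had been given drinking water with a mixture of 2 anti-inflammatory drugs, a drug metabolite and a synthetic estrogen, from 8.5 days after mating. Dose 2 held ibuprofen at 113 ng/L, its metabolite 2-hydroxyibuprofen at 225 ng/L, diclofenac at 112 ng/L and ethinyl-estradiol at 45 ng/L, and control animals received ethanol at 0.001%. Dose 1, used below only for a dose comparison, held 11.3, 90, 22.5 and 2.25 ng/L of the same compounds.

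All F2 ovaries of the series are labelled as untreated themselves, and the groups differ only in the group of origin of each parent. The protocol gives an age of 30 days after birth for females, and their pubertal stage is not known here. The labels mention no fostering, so what reached the F2 through the egg, through pregnancy or through maternal care cannot be told apart. The strain is not named, and nothing states whether the 3 libraries of a cross came from separate animals or separate litters. The tests can then speak only of the scatter among these libraries, which may be technical or shared within a litter.

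Before ovulation the ovary makes steroid hormones mainly in 2 neighbouring cell types. Theca and interstitial cells take up or make cholesterol, convert it to pregnenolone in the mitochondrion and on to androgens under luteinizing hormone (LH), and granulosa cells turn androgens into estrogens under follicle-stimulating hormone. Oocytes, stroma, vessels, surface epithelium and resident macrophages make up the rest of the organ.

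The deposited table held counts for 26264 genes, of which 17400 passed a low-count filter over the 18 F2 ovary libraries. The maternal dose 2 libraries held 38935976 to 42691620 counts and the control cross libraries 53038173 to 84721392 counts, so every control library was deeper. The part of depth in the differences below was not tested beyond the scaling of each library to its total (CPM, a gene's share of the library's counts, TMM-scaled). Defining ovarian markers were present in both groups: summed granulosa markers lay between 14690 and 15470 CPM in the maternal dose 2 cross and between 14500 and 16320 CPM in the control cross, and Foxl2, the transcription factor that keeps granulosa identity, lay between 267 and 378 CPM. Library C of the maternal dose 1 cross and library C of the cross with 2 dose 2 parents stood apart from the other F2 ovary libraries on the first and second principal component, and neither belongs to the 2 crosses compared.

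In ovaries from the maternal dose 2 cross, Cyp11a1, Cyp17a1 and Fdx1 of the steroid pathway, the LH receptor gene Lhcgr and most genes of cholesterol synthesis had lower values than in the control cross. All 14 macrophage markers tested were lower and all 26 cell cycle genes tested were higher, the latter by a small amount. No single gene passed the main test: edgeR's quasi-likelihood test with Benjamini-Hochberg adjustment called 0 of 17400 genes (0%) at an adjusted p under 0.05, and the lowest adjusted p was 0.238. At an unadjusted p under 0.05 there were 1044 genes (6% of those tested), 595 higher (3.42%) and 449 lower (2.58%), where 870 would be counted under a uniform p. Without library C of the maternal dose 2 cross the number at an unadjusted p under 0.05 was 594. DESeq2 on the same counts called 24 genes, 13 higher and 11 lower. The 3 libraries of one cross lay entirely outside the range of the other cross for 12.8% of genes, with 6.8% above and 6.02% below. Over all genes tested the median log2 difference was -0.0052, and 51.2% of genes were lower in the maternal dose 2 cross.

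Cyp11a1, the mitochondrial enzyme that cleaves the cholesterol side chain in the first step of steroid synthesis, had 752, 968 and 748 CPM in the maternal dose 2 libraries and 1600, 2356 and 1986 CPM in the control libraries. Every maternal dose 2 library was below every control library. The log2 difference was -1.27 (SE 0.23), with an adjusted p of 0.238 in edgeR and 0.00036 in DESeq2. Over the 14 alternatives of the closing section the adjusted p was lowest in DESeq2 and reached 0.999 in an edgeR fit. RefSeq's promoter table (GRCm38.p6) lists 2 start sites for Cyp11a1, and the 250 bases before the downstream one, at chr9:58014702-58014951 on the plus strand, are shown because no other gene of the pathway differed with a lower p:

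Cyp11a1: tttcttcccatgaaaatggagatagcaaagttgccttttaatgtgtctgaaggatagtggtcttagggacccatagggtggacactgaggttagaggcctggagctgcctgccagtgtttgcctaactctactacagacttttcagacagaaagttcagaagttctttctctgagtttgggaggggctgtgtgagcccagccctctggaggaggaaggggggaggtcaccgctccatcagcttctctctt

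No stretch of this sequence is in capitals, because the half-site AAGGNCA of the gonadal factor Nr5a1, searched on both strands, did not occur in the 300-base window of either start site. An exact string misses near matches, such as gaggtca in the sequence shown. The lack of a match therefore does not show that Nr5a1 has no site there. Among the 21 tested genes of steroid hormone synthesis, 14 had promoters in the table (17 promoters), and Cyp17a1 and Star had none. Of the 14 genes, 1, Cyp19a1, held the half-site, 19 bases after a start site. Counted by promoter and not by gene, 20.3% of all 32851 promoters held it.

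Cyp17a1, which makes androgens in theca and interstitial cells, had 245, 511 and 273 CPM in the maternal dose 2 libraries and 1367, 1054 and 1220 CPM in the control libraries. The crosses did not overlap, and the maternal dose 2 mean was 343 ± 146 CPM against 1213 ± 157 CPM (SD, n = 3 each). The log2 difference was -1.82 (SE 0.45, edgeR adjusted p = 0.605). Fdx1, the ferredoxin that passes electrons to mitochondrial P450 enzymes, had 97.4, 161 and 86.4 CPM against 305, 417 and 163 CPM. Its crosses were separated by a small margin, since library B of the maternal dose 2 cross almost reached library C of the control cross, and its log2 difference was -1.36 (SE 0.39, edgeR adjusted p = 0.631).

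Lhcgr, the LH receptor, had 99.3, 118 and 54.2 CPM in the maternal dose 2 cross and 292, 436 and 169 CPM in the control cross. All maternal dose 2 values were below all control values although the control libraries themselves differed widely. The log2 difference was -1.73 (SE 0.47, edgeR adjusted p = 0.619). Scarb1, the receptor that takes up cholesterol from high-density lipoprotein, had 363, 430 and 325 CPM against 634, 534 and 527 CPM, with a log2 difference of -0.60 (SE 0.16, edgeR adjusted p = 0.605).

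Other genes of the pathway are given by their values. Hsd3b1, which turns pregnenolone into progesterone and was the most abundant of these enzymes, had 3706, 3388 and 3223 CPM against 3749, 4039 and 3811 CPM, a log2 difference of -0.17 (SE 0.10). Its crosses did not overlap, yet the smallest gap was narrow. Star, which carries cholesterol into the mitochondrion, had 35.8, 64.4 and 35.8 CPM against 136, 52.9 and 71.2 CPM. These ranges overlapped, although the log2 difference was as large as -0.94 (SE 0.59). Nr5a1, a transcription factor of steroidogenic cells, had 444, 365 and 396 CPM against 475, 494 and 482 CPM, a log2 difference of -0.27 (SE 0.10, edgeR adjusted p = 0.722). Reads of Hsd3b1 and Hsd3b6, which are near-identical copies, may have been divided between them by the counting. Over the whole list of 21 tested genes of steroid hormone synthesis, 15 were lower and 6 higher, with a median log2 difference of -0.18. Of these, 7 lay entirely below the control libraries (6.02% of all genes) and 1 above (6.8%), and 4 were lower (2.58%) and 1 higher (3.42%) at an unadjusted p under 0.05. EdgeR called 0 of the 21 and DESeq2 called 1, Cyp11a1.

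**Figure D1:**
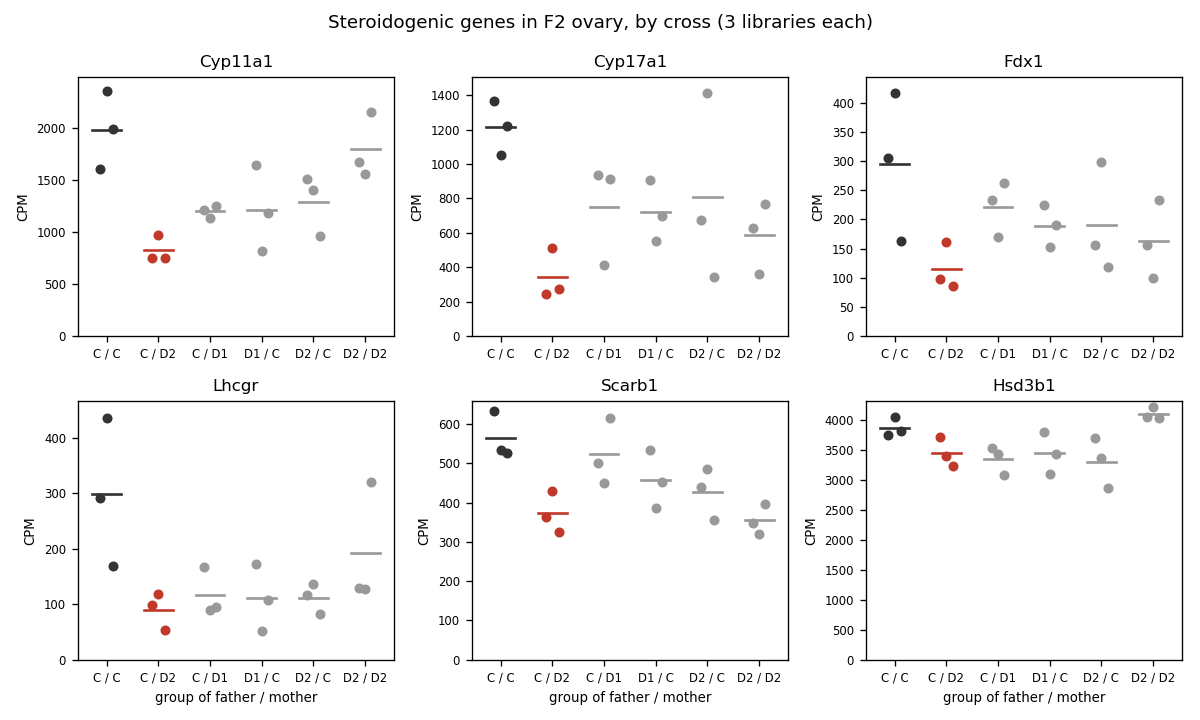
CPM of Cyp11a1, Cyp17a1, Fdx1, Lhcgr, Scarb1 and Hsd3b1 in each of the 18 F2 ovary libraries, by the group of father and mother (C control, D1 dose 1, D2 dose 2); points are libraries and lines are group means. The maternal dose 2 cross (red) lies below the control cross (black) in all 6 panels, and for Cyp17a1 the means of the other 4 crosses (grey) lie between the 2.

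Most theca and interstitial markers were lower in the maternal dose 2 cross. The list shares Cyp11a1, Cyp17a1, Fdx1, Hsd3b1, Akr1c14 and Srd5a1, among others, with the steroid list. It also shares Scarb1 with the cholesterol list, so these lists are not separate observations. Of 18 tested members, 15 were lower and 3 higher, 9 lay entirely below the control libraries (6.02% of all genes did), 7 were lower at an unadjusted p under 0.05 (2.58% of all genes), and the adjusted threshold was passed by 0 in edgeR and by 1, Cyp11a1, in DESeq2. Their median log2 difference was -0.31, against -0.0052 over all genes. Members of the list that respond to Hedgehog signals from granulosa cells did not share this: Ptch1, Gli1 and Hhip overlapped between the crosses, with log2 differences of 0.17, 0.17 and -0.07. Insl3, a peptide hormone of theca cells, overlapped as well, at 12.7, 5.41 and 4.07 CPM against 6.91, 4.92 and 15.7 CPM. Fewer theca cells and less RNA of these genes per theca cell cannot be told apart in whole ovaries.

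Fabp3, a fatty acid carrier, and Mgarp, a mitochondrial protein abundant in steroidogenic cells, completed the 7 members, with log2 differences of -0.51 (SE 0.18) and -0.50 (SE 0.15). Among 14 tested luteal markers the median log2 difference was -0.54, with 10 lower and 4 higher. Of these, 5 lay entirely below the control libraries (6.02% of all genes) and 2 above (6.8%). At an unadjusted p under 0.05, 5 were lower (2.58% of all genes) and 1 higher (3.42%). EdgeR called 0 of the 14 and DESeq2 called 2, Cyp11a1 and Sfrp4. The list shares Cyp11a1, Scarb1, Lhcgr and Star with the theca list, so it is not a separate observation. Of its own members, Sfrp4, a secreted modulator of Wnt signals, had 4.43, 6.15 and 4.78 CPM against 21.0, 25.5 and 11.7 CPM, and Prlr, the prolactin receptor, had 71.8, 92.3 and 59.1 CPM against 163, 112 and 99.2 CPM. Both were entirely below the control libraries, and their log2 differences were -1.92 (SE 0.43) and -0.74 (SE 0.33). Akr1c18, which inactivates progesterone, went the other way but at 1.27 to 2.78 CPM against 0.47 to 0.80 CPM.

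Genes of the ovulatory response differed widely in level. Adamts1, a matrix protease of the ovulating follicle, had 36.8, 44.1 and 37.1 CPM against 54.9, 70.3 and 57.2 CPM. The crosses did not overlap, and the log2 difference was -0.63 (SE 0.13, edgeR adjusted p = 0.535; DESeq2 adjusted p = 0.0247). Pgr, the progesterone receptor, was at 1.85 to 2.55 CPM against 1.45 to 3.97 CPM, and Ptgs2 was below 1 CPM in all 6 libraries. Of 19 tested genes of gonadotropin signalling and ovulation, 8 were higher and 11 lower, with a median log2 difference of -0.05.

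Cholesterol genes were lower almost throughout. Of 25 tested genes of cholesterol synthesis and uptake, 23 were lower and 2 higher in the maternal dose 2 cross, 12 lay entirely below the control libraries (6.02% of all genes), 13 were lower at an unadjusted p under 0.05 (2.58% of all genes), and none passed the adjusted threshold in edgeR or DESeq2. The median log2 difference was -0.29, and the summed level was 1970, 2083 and 1982 CPM against 2565, 2389 and 2724 CPM. Msmo1, a sterol demethylase, had 99.3, 113 and 116 CPM against 153, 152 and 174 CPM, and Dhcr7, the last reductase, had 73.4, 75.2 and 81.1 CPM against 104, 85.9 and 105 CPM.

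Msmo1 and Dhcr7 each had all 3 maternal dose 2 values under the control values, with log2 differences of -0.55 (SE 0.17) and -0.36 (SE 0.11). Srebf2, the transcription factor that drives this pathway when sterols are scarce, overlapped between the crosses, with a log2 difference of -0.12 (SE 0.17). Most of these genes stood highest in the control cross: its mean was the highest of the 6 F2 crosses for 18 of the 25, and the maternal dose 2 mean was the lowest for 2. Nearly all of them are lower in the maternal dose 2 cross than in the control cross, so that order is partly fixed by this difference.

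The sterol regulatory element was searched as the exact string TCACNCCAC on both strands of 300-base promoters, which misses near matches. It occurred in 1 of 16 cholesterol genes that had promoters in RefSeq's table (19 promoters) and in 1.24% of all 32851 promoters. The gene was Hmgcs1, an early enzyme of the pathway, and the 250 bases before its start site, at chr13:119690101-119690350 (GRCm38.p6, plus strand), are shown with the element in capitals, 137 bases before the start:

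Hmgcs1: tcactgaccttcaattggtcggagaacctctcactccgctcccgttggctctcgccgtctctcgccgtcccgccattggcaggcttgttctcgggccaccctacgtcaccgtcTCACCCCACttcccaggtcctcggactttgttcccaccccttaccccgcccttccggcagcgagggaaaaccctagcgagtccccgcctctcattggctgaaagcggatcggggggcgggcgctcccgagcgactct

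Hmgcs1 itself had 197, 205 and 194 CPM in the maternal dose 2 cross and 197, 266 and 266 CPM in the control cross. Control library A reached the maternal dose 2 values, and the log2 difference was -0.29 (SE 0.25).

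Macrophage markers were lower in the maternal dose 2 cross too. All 14 tested markers were lower, 6 of them entirely below the control libraries (6.02% of all genes), 5 at an unadjusted p under 0.05 (2.58% of all genes) and none past the adjusted threshold in edgeR or DESeq2, with a median log2 difference of -0.59. Their summed level was 316, 268 and 290 CPM against 443, 357 and 476 CPM, and no marker was at 0. Cd68, a lysosomal protein of macrophages, had 15.6, 11.1 and 12.3 CPM against 19.5, 17.4 and 20.8 CPM. Adgre1, the F4/80 antigen, had 12.1, 8.58 and 8.57 CPM against 19.3, 10.4 and 17.8 CPM, and its crosses overlapped. The part of macrophage content in the lower steroidogenic and cholesterol transcripts was not tested. Genes of antigen presentation were lower for 14 of 15 members (median -0.43), none at an unadjusted p under 0.05 and none called by edgeR or DESeq2, with 4 entirely below the control libraries (6.02% of all genes).

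**Figure D2:**
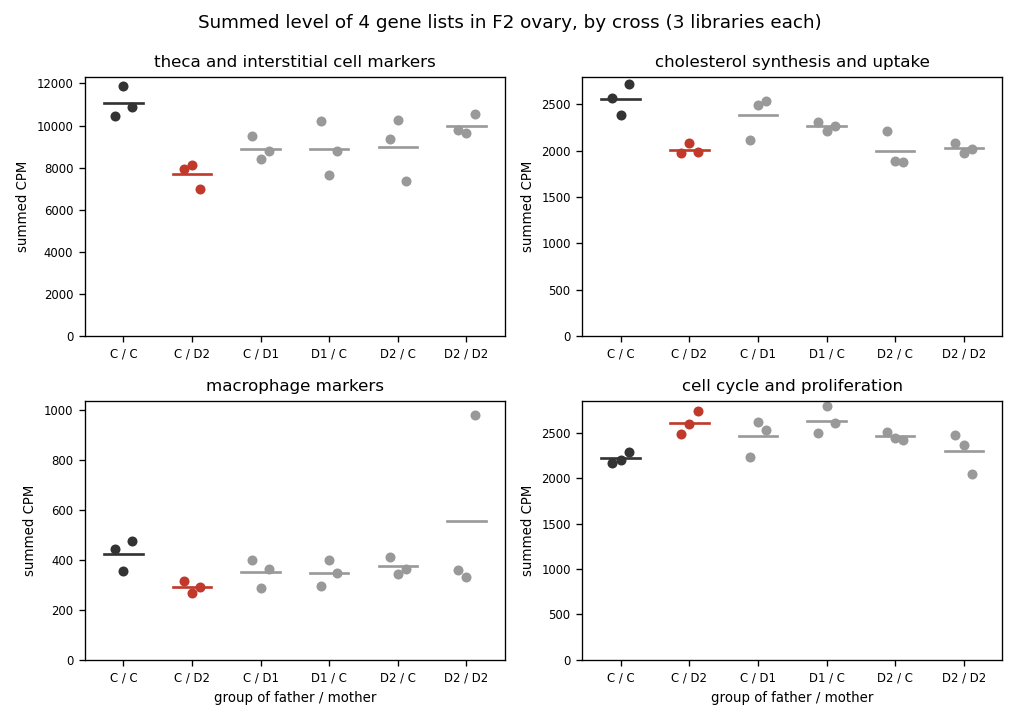
Summed CPM of 4 gene lists in each of the 18 F2 ovary libraries, by the group of father and mother; points are libraries and lines are group means. The maternal dose 2 cross lies below the control cross for theca and interstitial markers, cholesterol genes and macrophage markers and above it for cell cycle genes, and 1 library with 2 dose 2 parents reaches 981 CPM of macrophage markers.

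Oocyte transcripts tended to be higher in the maternal dose 2 cross, and most of the markers overlapped between the crosses. Of 25 tested oocyte markers 22 were higher and 3 lower (median 0.30), of which 2 lay entirely above the control libraries (6.8% of all genes). The summed level was 1827, 1662 and 2014 CPM against 1202, 1945 and 1369 CPM, so control library B lay within the range of the maternal dose 2 libraries. Bmp15, a growth factor secreted by the oocyte, had 54.2, 53.8 and 61.8 CPM against 34.6, 50.9 and 36.9 CPM, a log2 difference of 0.47 (SE 0.18, edgeR adjusted p = 0.722). Gdf9, its partner, overlapped at 201, 180 and 233 CPM against 118, 224 and 146 CPM. Nobox, a transcription factor needed for early follicle growth, had 35.5, 32.9 and 35.8 CPM against 20.5, 31.3 and 25.7 CPM.

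Maternal effect genes, whose products are stored in the egg for the embryo, were higher for 19 of 20 members (median 0.34), with 5 entirely above the control libraries (6.8% of all genes) and 4 at an unadjusted p under 0.05 (3.42% of all genes). EdgeR and DESeq2 called 0 of them. The summed level overlapped, at 2760, 2591 and 2892 CPM against 2074, 2616 and 2250 CPM. Control library B was the highest control library here and for the oocyte markers, so the lists are not read as separate observations. Tle6, part of the subcortical maternal complex, had 144, 118 and 150 CPM against 71.1, 109 and 96.4 CPM. Zfp57, which protects imprints from loss, had 81.5, 76.1 and 88.8 CPM against 49.9, 75.3 and 63.6 CPM. Both genes were separated by a narrow gap to control library B, and their log2 differences were 0.58 (SE 0.20) and 0.38 (SE 0.14).

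Among 19 tested genes of DNA methylation and demethylation, 15 were higher and 4 lower, with a median of 0.14. Of these, 3 lay entirely above the control libraries (6.8% of all genes) and 1 below (6.02%), 3 were higher at an unadjusted p under 0.05 (3.42% of all genes), and neither edgeR nor DESeq2 called any. Uhrf1 and Zfp57 also stand among the maternal effect genes, so these lists are not separate observations. Dnmt1, the maintenance methyltransferase, had 316, 301 and 309 CPM against 231, 199 and 245 CPM, and Uhrf1, which brings it to replicated DNA, had 184, 172 and 194 CPM against 121, 122 and 156 CPM. Neither gene's crosses overlapped. The log2 differences were 0.46 (SE 0.11, edgeR adjusted p = 0.605) and 0.46 (SE 0.15, edgeR adjusted p = 0.642). The de novo enzymes Dnmt3a and Dnmt3b overlapped, with log2 differences of 0.20 (SE 0.14) and 0.14 (SE 0.13), and so did the demethylases Tet1, Tet2 and Tet3.

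Cell cycle genes were higher by a small and even amount. All 26 tested members were higher, 16 lay entirely above the control libraries (6.8% of all genes), 4 were higher at an unadjusted p under 0.05 (3.42% of all genes) and none passed the adjusted threshold in edgeR or DESeq2, with a median log2 difference of 0.21. Bub1b, a mitotic checkpoint kinase, had 98.0, 93.9 and 99.2 CPM against 79.6, 68.7 and 79.9 CPM. Mcm6, a subunit of the replicative helicase, had 233, 220 and 239 CPM against 172, 204 and 208 CPM. Mki67, the proliferation antigen, overlapped at 143, 191 and 202 CPM against 184, 97.3 and 148 CPM. For 15 of the 26 genes the control cross had the lowest mean of the 6 F2 crosses, and for 7 the maternal dose 2 cross had the highest. Since all 26 are higher in the maternal dose 2 cross, that order is partly fixed by this difference.

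**Figure D3:**
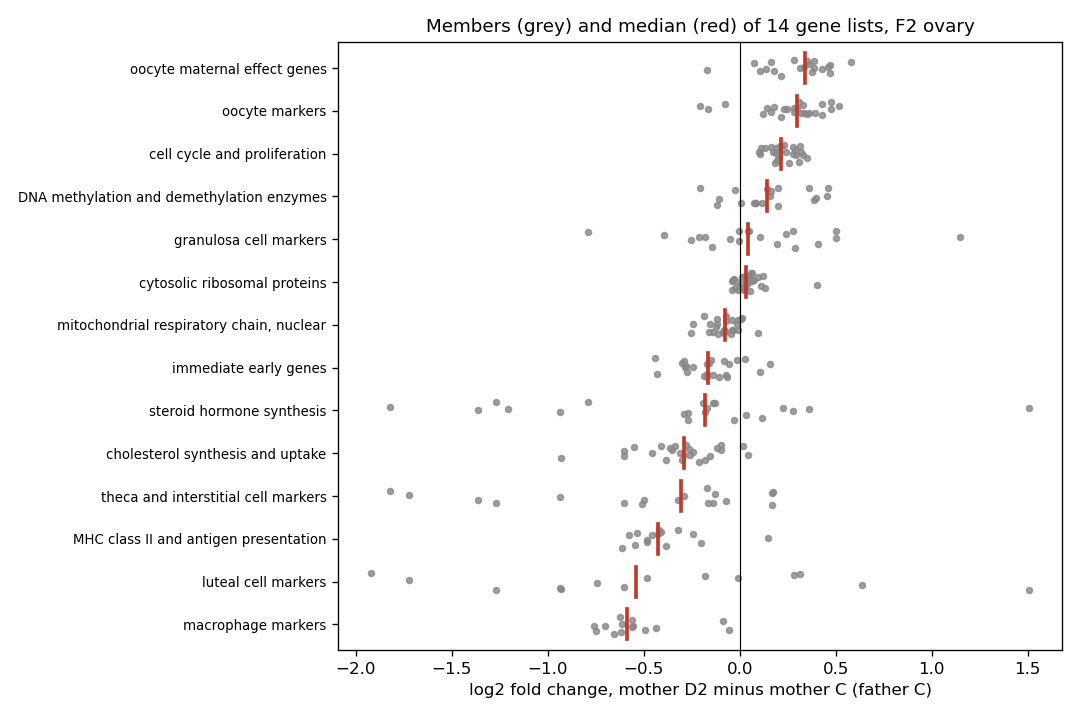
Log2 fold change between the maternal dose 2 cross and the control cross for each tested member (grey points, spread vertically for legibility) of 14 gene lists, with the list median in red. The medians run from -0.59 for macrophage markers to 0.34 for maternal effect genes, and the 26 cell cycle genes all lie above 0.

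Granulosa markers were split in sign, with 11 of 20 higher, 9 lower and a median of 0.05. Of these, 3 lay entirely above the control libraries (6.8% of all genes) and 0 below (6.02%). At an unadjusted p under 0.05, 4 were higher (3.42% of all genes) and 1 lower (2.58%). Neither edgeR nor DESeq2 called any. Cyp19a1, the aromatase that makes estrogens, had 44.8, 61.2 and 49.5 CPM against 41.5, 180 and 47.0 CPM, so its log2 difference of -0.79 (SE 0.53) rested on control library B and was 0.23 without it. Kitl, the granulosa ligand of the oocyte receptor Kit, had 62.5, 51.6 and 81.3 CPM against 24.4, 37.2 and 26.5 CPM. All 3 maternal dose 2 values of Kitl were above the control values, and the log2 difference was 1.15 (SE 0.51). Fshr and Amh overlapped, with log2 differences of -0.05 (SE 0.18) and 0.04 (SE 0.23). Inhbb, an activin and inhibin subunit, had 1612, 1477 and 1608 CPM against 1270, 1276 and 1430 CPM, which did not overlap.

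Targets of the mixture's components were examined next. Ethinyl-estradiol acts on estrogen receptors: Esr1 overlapped between the crosses (log2 difference 0.03, SE 0.14), and Esr2, the receptor of granulosa cells, had 300, 290 and 257 CPM against 264, 160 and 216 CPM, which overlapped too (log2 difference 0.41, SE 0.17). Of 19 tested genes of estrogen receptors and response, 6 were higher and 13 lower, with a median of -0.13. Ibuprofen and diclofenac inhibit cyclooxygenases: Ptgs1 had 4.09, 3.84 and 2.66 CPM against 3.74, 4.48 and 4.35 CPM, and overlapped. Other prostanoid genes were lower, namely Slco2a1, a prostaglandin transporter, with 40.1, 31.5 and 27.8 CPM against 78.7, 45.4 and 57.5 CPM, and Tbxa2r, the thromboxane receptor, with 6.96, 5.51 and 9.56 CPM against 13.6, 14.7 and 9.75 CPM.

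Slco2a1 and Tbxa2r had log2 differences of -0.87 (SE 0.23) and -0.79 (SE 0.22), and the whole list of 21 prostaglandin genes had 9 higher, 12 lower and a median of -0.10. Among 16 tested genes of drug and estrogen metabolism, 10 were lower and 6 higher, with a median of -0.21. Ephx1, the microsomal epoxide hydrolase, had 199, 193 and 152 CPM against 354, 238 and 282 CPM, and Ahr, the aryl hydrocarbon receptor, had 17.5, 19.5 and 15.4 CPM against 28.9, 22.9 and 25.0 CPM. Neither gene's crosses overlapped, and the log2 differences were -0.68 (SE 0.15, edgeR adjusted p = 0.535; DESeq2 adjusted p = 0.0396) and -0.55 (SE 0.18, edgeR adjusted p = 0.696).

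The 20 named genes with the lowest p held 11 higher and 9 lower in the maternal dose 2 cross, and none overlapped between the crosses. Their edgeR adjusted p lay between 0.238 and 0.605, and 18 of the 20 were among the 24 genes that DESeq2 called. Over all genes tested, 12.8% did not overlap. The 20 were chosen for a low p on the same counts, so their separation and their DESeq2 calls are largely fixed by the choice. Cyp11a1, Cyp17a1, Sfrp4, Adamts1 and Ephx1, described above, are 5 of the 9 lower ones. Another is Plin1, the coat protein of lipid droplets, with 35.1, 32.1 and 25.7 CPM against 59.1, 40.0 and 50.6 CPM. It stands in the list of adipocyte markers, but Adipoq, a secreted protein of fat cells, was at 0.85 to 1.13 CPM against 0.16 to 0.34 CPM and so lay on the other side. Mid1ip1, a regulator of fatty acid synthesis, had 299, 336 and 263 CPM against 389, 467 and 407 CPM. Dnah2, an axonemal dynein chain, had 31.6, 26.8 and 24.5 CPM against 52.7, 45.9 and 41.7 CPM. Pcp4, a calmodulin-binding peptide, was at 0.026 to 0.16 CPM against 0.40 to 1.76 CPM, few reads, so its fold change is not read here.

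Among the 11 higher ones, Ripor3 had the lowest p of all named genes, with 22.1, 14.9 and 24.4 CPM against 10.3, 8.90 and 9.04 CPM and a log2 difference of 1.12 (SE 0.20, edgeR adjusted p = 0.238). Myo5b, an unconventional myosin of vesicle transport, had 29.3, 28.9 and 28.5 CPM against 21.0, 18.6 and 20.5 CPM. The spread within each cross was small for Myo5b, and its log2 difference was 0.53 (SE 0.10). Cd200, a membrane glycoprotein that restrains myeloid cells, had 144, 102 and 122 CPM against 82.0, 75.8 and 71.7 CPM. Ablim1, an actin-binding protein, had 293, 262 and 295 CPM against 209, 191 and 185 CPM. Rph3a, a Rab effector of secretory vesicles, had 6.01, 6.18 and 5.87 CPM against 3.07, 2.41 and 2.73 CPM. Slc24a5, Gucy2e, Pipox, Dis3l, Pla2g4d and Kazald1 were the other higher genes, with log2 differences between 0.43 and 1.71. For all 11 higher genes the maternal dose 2 mean was the highest and the control mean the lowest of the 6 F2 crosses, and for 8 of the 9 lower genes the control mean was the highest. Since these genes were chosen for the difference between these 2 crosses, that order is largely fixed by the choice.

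The same change of mother was measured in 6 other libraries: F2 ovaries with a dose 2 father and a dose 2 mother against those with a dose 2 father and a control mother. No library is shared with the comparison above. There, edgeR called 0 of 17400 genes (0%), 883 genes had an unadjusted p under 0.05 (5.07%) and DESeq2 called 14. Leaving out 1 library at a time gave 407 to 1308 genes at an unadjusted p under 0.05, the lowest without library C of the cross with 2 dose 2 parents. Of the 1044 genes at an unadjusted p under 0.05 with a control father, 424 (40.6%) had the same sign with a dose 2 father, while 44% of all genes did. Across all 17400 genes the 2 differences had a Pearson correlation of -0.07, as a description over genes that are not independent.

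Cyp11a1 went in opposite directions in the 2 settings. With a dose 2 father it had 1668, 1557 and 2151 CPM with a dose 2 mother and 1505, 1398 and 960 CPM with a control mother, so that every library with a dose 2 mother was above the others (log2 difference 0.48, SE 0.22). In that comparison 17.1% of all genes did not overlap, 8.68% above and 8.46% below. The difference between the 2 maternal differences was 1.75 (SE 0.32), with an adjusted p of 0.254 in edgeR, which is not past the threshold, and 0.00079 in DESeq2, which is. Cyp17a1 had 626, 360 and 767 CPM with a dose 2 mother against 676, 1411 and 345 CPM, which overlapped. Lhcgr had 129, 128 and 321 CPM against 116, 137 and 82.4 CPM and overlapped as well. Of the 20 genes with the lowest p, 8 had the same sign with a dose 2 father, and the crosses were separated in that direction for 2 of them and in the opposite direction for 2 (0.489% and 1.03% of all genes were separated in both comparisons in the same and in opposite directions).

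**Figure D4:**
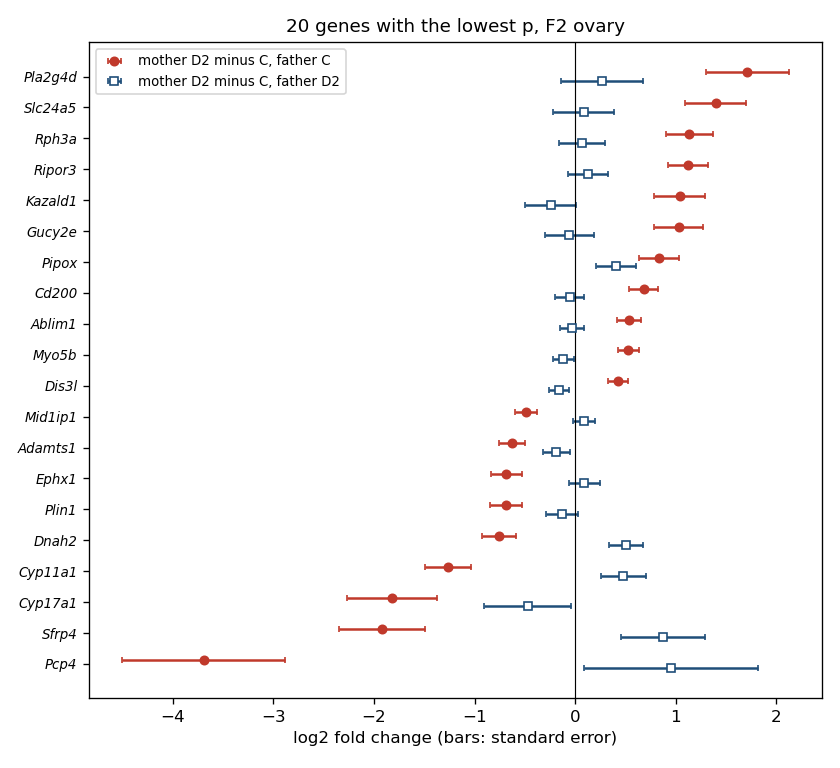
Log2 fold change (points) with its standard error (bars) for the 20 named genes with the lowest p, for mothers of the dose 2 group against control mothers with a control father (red circles) and with a dose 2 father (blue squares). The red values run from -3.70 for Pcp4, which rests on few reads, to 1.71 for Pla2g4d, and 8 of the 20 blue values have the same sign.

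The lists differed in this. With a dose 2 father, 11 of the 18 theca and interstitial markers had the opposite sign to that with a control father, but the median stayed below 0, at -0.13 against -0.31, with 10 lower and 8 higher. For cholesterol genes, 18 of the 25 had the opposite sign, and the median was 0.09. All but 7 of the 26 cell cycle genes were lower there (median -0.11), and 11 of the 14 macrophage markers were higher (median 0.41), where the library with 2 dose 2 parents that stood apart carried the highest macrophage level. Oocyte markers kept their sign for all but 3 of 25, with a median of 0.11 against 0.30. With a dose 2 father 0 of these 25 were separated in either direction (17.1% of all genes), and 0 had an unadjusted p under 0.05 (5.07%). These are counts and medians of each comparison, and edgeR's interaction was not past the adjusted threshold for any gene (0%, with 1234 genes, 7.09%, at an unadjusted p under 0.05). DESeq2 called 27. The 1234 became 712 without library C of the cross with 2 dose 2 parents and 1989 without control library A.

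Which parent came from the dose 2 group was compared directly between the maternal dose 2 cross and the cross with a dose 2 father and a control mother, which shares the 3 maternal dose 2 libraries with the main comparison. In edgeR 0 of 17400 genes were called (0%), 414 genes (2.38%) had an unadjusted p under 0.05, and DESeq2 called 2, one of them Gata6, a transcription factor of follicle cells. Gata6 had 124, 104 and 115 CPM with a dose 2 mother and 69.3, 82.2 and 82.7 CPM with a dose 2 father, a log2 difference of 0.55 (SE 0.10, edgeR adjusted p = 1.0). Cyp11a1 in the paternal cross, at 1288 ± 289 CPM (SD, n = 3), lay between the maternal dose 2 cross at 823 ± 126 CPM and the control cross at 1981 ± 378 CPM, and its log2 difference from the maternal cross was -0.65 (SE 0.23).

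Against the maternal dose 1 cross, edgeR called 0 of 17400 genes (0%), 1215 genes (6.98%) had an unadjusted p under 0.05 and DESeq2 called 3. The 1215 moved with single libraries: the number was 3505 without library A and 2837 without library B of the maternal dose 1 cross, 466 without its library C, and 535 without library C of the maternal dose 2 cross. Cyp11a1 was at 1210, 1135 and 1251 CPM with a dose 1 mother, above all maternal dose 2 libraries and below all control libraries. Between the maternal dose 2 and dose 1 crosses 7.71% of all genes did not overlap, and between the maternal and paternal dose 2 crosses 11% did not. Cyp17a1 was at 933, 414 and 910 CPM, which overlapped the maternal dose 2 cross. Their log2 differences, dose 2 minus dose 1, were -0.54 (SE 0.22) and -1.13 (SE 0.44). Ordered by mean CPM, Cyp11a1 was lowest in the maternal dose 2 cross, then about equal in the maternal dose 1, paternal dose 1 and paternal dose 2 crosses (1199, 1212 and 1288 CPM), and highest with 2 dose 2 parents (1792 CPM) and in the control cross. Neighbouring means within these 3 middle crosses differed by less than their spread. Cyp11a1 is among the genes with the lowest p between the maternal dose 2 and control crosses, so the places of those crosses in the order are partly fixed.

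In F1 ovaries, the generation of the mothers, dose 2 was compared with control in 3 libraries each. EdgeR called 0 of 17896 genes (0%), 671 genes (3.75%) had an unadjusted p under 0.05 and DESeq2 called 8. Without control library B the 671 became 1839, and without control library C 1607. Cyp11a1 had 2232, 957 and 503 CPM at dose 2 and 998, 626 and 1380 CPM in controls, and Cyp17a1 had 1439, 262 and 207 CPM against 389, 201 and 906 CPM. Both genes overlapped, and the 3 F1 control libraries alone ran from 201 to 906 CPM of Cyp17a1. The log2 differences were 0.30 (SE 0.48) and 0.35 (SE 0.83).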

How the data were processed

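RNA was extracted from ovaries with TRIZOL and made into stranded mRNA libraries read at 100 nt, per the labels' protocols. Alignment tools listed in the submitters' processing notes are TopHat2 2.1.1 and Bowtie2 2.4.5, with the mouse build mm39; counting was listed as featureCounts 2.0.3. Which annotation was counted, and whether by strand, is not given in the sources used here. The authors deposited raw read counts per gene, 1 column per library and not normalized, and these counts were used as deposited; all columns matched a labelled sample.

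Genes were kept by edgeR's filterByExpr with a minimum count of 10, scaled by TMM and tested with edgeR 4.0.16 (R 4.3.3) in 1 quasi-likelihood fit of the 18 F2 ovary libraries (6 crosses of 3, 12 residual degrees of freedom), with no covariates. F1 ovaries had a fit of their own. Calls used a Benjamini-Hochberg adjusted p under 0.05 over all genes tested, and standard errors were taken from the log2 fold change and its F statistic. CPM are TMM-scaled. DESeq2 1.42.0 and the other alternatives are in the closing section. Scripts were tested on simulated data. Libraries of 1 cross were not copies of each other: chi-square per degree of freedom between their counts was 23.3 to 148.

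The text names the 20 genes with the lowest p (predicted genes left out, at least 1 CPM in the higher cross), up to 3 genes per list and a set of standard ovarian genes, plus some list members chosen after their values were seen (Mgarp, Kitl, Srebf2, Hmgcs1, Cd68, Mki67, Akr1c18, Ptch1, Gli1, Hhip, Insl3, Foxl2, Dnmt3a, Dnmt3b and the Tet genes). Members and the 46 lists (745 of 792 list genes tested) were chosen with earlier results of these data known. Some genes are not reported here. Promoter sequences are RefSeq's.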

Additional observations from a re-analysis of the deposited data

Results flagged for a closer look

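For 8 named genes the 3 libraries with a dose 2 mother lay entirely on one side of those with a control mother when the father was a control, and entirely on the opposite side when the father came from the dose 2 group. Over all genes tested 1.03% did so, and the named genes were partly chosen for a low p with a control father, so the 8 are a description. Opposite separation is itself a difference between the 2 settings. The interaction values and calls below are therefore largely fixed by the choice and are no separate support. The difference of the 2 maternal log2 differences was tested as an interaction in edgeR's quasi-likelihood fit, and no adjusted p was under 0.05. DESeq2 called it for 3 of the 8, Cyp11a1 (adjusted p = 0.00079), Dnah2 (adjusted p = 0.00268) and Fabp3 (adjusted p = 0.0253). In edgeR it was 1.75 for Cyp11a1 (adjusted p = 0.254), 1.27 for the dynein chain Dnah2 (adjusted p = 0.254), 1.13 for the fatty acid carrier Fabp3 (adjusted p = 0.374), 0.52 for Nr5a1 (adjusted p = 0.561), 0.48 for Hsd3b1 (adjusted p = 0.603) and 0.61 for Dcn, a proteoglycan of stroma (adjusted p = 0.692). It was negative for the checkpoint kinase Bub1b, at -0.59 (adjusted p = 0.603), and for the retinol receptor Stra6, at -0.81 (adjusted p = 0.660). Of these 8, Cyp11a1, Fabp3, Nr5a1 and Hsd3b1 belong to the theca or steroid lists.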

How the results depend on the processing

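The count of called genes depended on the tool: edgeR called 0 in every comparison, and DESeq2 called 24 for the maternal dose 2 cross against the control cross, 14 with a dose 2 father, 27 for the interaction, 2 against the paternal dose 2 cross, 3 against the maternal dose 1 cross and 8 in F1 ovary. Fitting only the compared libraries gave 1 call against the paternal dose 2 cross. Leaving out 1 library at a time gave 0 to 0 calls in the main comparison (lowest adjusted p 0.0923; 594 to 1221 genes at an unadjusted p under 0.05), 0 to 1 for the interaction, 0 to 20 against the maternal dose 1 cross (20 without its library A) and 0 to 1 in F1 ovary (1 without dose 2 library C). Another scaling, no filter, all 27 ovary libraries, and leaving out the libraries that stood apart (chosen after seeing the data) gave 0 calls in the main comparison. Library letters did not pair the crosses (correlations of same-letter deviations 0.0207, -0.0342 and -0.0853), and a fit with the replicate block called 0 genes, with 984 at an unadjusted p under 0.05. Of 148 named genes, 141 kept their sign in every alternative; the others changed it only without 1 library, over ranges of -0.23 to 0.0428 for Fshr, -0.11 to 0.10 for Esr1, -0.14 to 0.19 for Amh, -0.074 to 0.37 for Rps19, -0.53 to 0.23 for Pgr, -0.28 to 0.11 for Kit and -1.14 to 0.23 for Cyp19a1. Without 1 library Cyp11a1 ran from -1.41 to -1.12 and Cyp17a1 from -2.24 to -1.63; medians ran from -0.43 to -0.20 for theca markers, -0.33 to -0.23 for cholesterol genes, -0.72 to -0.48 for macrophage markers, 0.17 to 0.25 for cell cycle genes and 0.11 to 0.59 for oocyte markers. Of all 46 lists, 27 kept the sign of their median in every alternative. Depth differed between the crosses throughout.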

Other observations

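Several lists that the comparison was not centred on are given as values. Transcripts of the mitochondrial respiratory chain were lower for 23 of 26 genes, by a median of -0.08 on the log2 scale, with 2 genes entirely below the control libraries (6.02% of all genes). Without 1 library that median ran from -0.20 to 0.09, so its sign rested on single libraries. The summed level overlapped, at 5428, 5229 and 5494 CPM against 4863, 6477 and 5495 CPM. Immediate early genes, which respond within minutes to handling and to hormones, were lower for 21 of 24, with a median of -0.16. Jun, one of them, had 60.7, 68.3 and 57.1 CPM against 79.2, 92.4 and 79.7 CPM. Cytosolic ribosomal proteins had a median of 0.03. Of 29 imprinted genes 13 were higher and 16 lower, with a median of -0.02. Usp29, expressed from the paternal allele, had 2.21, 3.14 and 2.59 CPM against 1.89, 1.28 and 1.55 CPM, and Dio3, which inactivates thyroid hormone, had 4.69, 5.72 and 5.54 CPM against 5.90, 12.7 and 9.54 CPM.

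Wfdc2, a secreted protein of oviduct epithelium, was above the libraries with a control mother in both maternal comparisons. It had 1.51, 1.98 and 2.43 CPM against 0.89, 0.71 and 0.79 CPM with a control father, a log2 difference of 1.31 (SE 0.40). With a dose 2 father it had 1.46, 1.48 and 4.90 CPM against 1.04, 0.92 and 0.64 CPM. Over all genes tested, 0.489% were separated in the same direction in both comparisons. The summed oviduct list was 52.6, 73.0 and 65.6 CPM against 46.0, 72.0 and 52.2 CPM in the first comparison and overlapped, and the part of adhering oviduct was not tested. Lama1, a laminin chain of follicle basement membrane, had 712, 589 and 606 CPM against 494, 316 and 413 CPM, a log2 difference of 0.64 (SE 0.16, edgeR adjusted p = 0.605).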
